A study of Mus musculus with 6 samples.

Results

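The genes described here are 48 antioxidant and glutathione genes, picked by name for their roles: superoxide dismutases and catalase, glutathione peroxidases, peroxiredoxins, the thioredoxin and glutaredoxin systems, glutathione synthesis and transfer, and the NRF2 pathway. They are 48 of the 37979 genes of the deposited table. Of these, 47 were found by symbol and *Msrb1* was found by its gene identifier, since the table gives its older symbol *Sepx1*. The RNA came from the hindlimb gastrocnemius (GAS) muscles of untreated mice 20 weeks of age, with 3 wildtype (WT) and 3 Kvβ2 knockout (KO) mice and 1 library per mouse. The WT mice and the Kvβ2-/- KO mice came from matings of heterozygous carriers of the null allele, which is carried in every cell of the animal and not in the muscle alone. The libraries of both genotypes carry the replicate numbers 1, 7 and 8. Expression is given in FPKM, fragments normalized to transcript length and to the mapped fragments of the library, which can be compared between genes, and differences are given as KO minus WT on the scale of log2(FPKM + 0.1), tested with limma and printed with their standard error (SE). In bulk muscle, fewer cells of a type and less RNA per cell cannot be told apart.

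Muscle fibers make superoxide and hydrogen peroxide in their mitochondria and at membrane oxidases. Superoxide dismutases turn superoxide into hydrogen peroxide, and catalase, the glutathione peroxidases and the peroxiredoxins turn the peroxide into water. The glutathione peroxidases and the peroxiredoxins, but not catalase, use electrons that come from NADPH by way of glutathione or thioredoxin. NRF2, held back by KEAP1 until the cell is under oxidative stress, binds the antioxidant response element and drives many of these genes. Kvβ2 itself belongs to the aldo-keto reductases and binds NADPH, which is the cofactor that feeds both systems.

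The targeted gene *Kcnab2* was at 0.233, 0.10 and 0.110 FPKM in the WT libraries, at 0.0151 FPKM in KO replicate 7 and listed at 0 in the other two KO libraries. The muscle genes *Ckm* and *Acta1* were at 2675 to 7971 FPKM and 5029 to 13917 FPKM over the 6 libraries. The fast myosin gene *Myh4* is listed at 0 in all libraries of this muscle, so a value of 0 in the table is not always a measured absence, but 0 of the 48 genes was listed at 0 in any library. The depth, estimated from steps in low FPKM values, was 20510000 to 21570000 fragments in the WT and 15090000 to 19080000 fragments in the KO libraries. At this depth the least covered value, that of *G6pdx* in KO replicate 8, rests on about 31.2 fragments. The libraries also differed in the levels of marker genes. The counts of these genes at an unadjusted limma p under 0.05 stand beside 15.3% higher and 10.9% lower of all tested genes. The 15 muscle genes summed to 46864 to 67483 FPKM in WT and 66693 to 74786 FPKM in KO muscle, with 5 of 15 higher in KO at an unadjusted p under 0.05. The 10 entries for slow fiber genes summed to 51.4 FPKM in WT replicate 8 and to 709 and 1015 FPKM in the other two WT libraries, and to 373 to 2018 FPKM in the KO libraries. The 10 adipocyte genes summed to 236 to 448 FPKM in WT and to 307 to 647 FPKM in KO muscle, highest in KO replicate 7, with 6 of 10 higher in KO at an unadjusted p under 0.05 and none listed at 0. The 8 red blood cell genes summed to 242 to 314 FPKM in WT and 266 to 547 FPKM in KO muscle, with 2 of 5 tested genes higher at an unadjusted p under 0.05, and *Slc4a1* and *Epb42* were under 0.05 FPKM in each library. The 14 macrophage and leukocyte genes summed to 26.1 to 55.3 FPKM in WT and 37.6 to 85.8 FPKM in KO muscle, with 1 of 12 tested genes higher. Of the lists for endothelial cells, fibroblasts, Schwann cells and tissue handling, 3 of 11, 3 of 11, 0 of 7 and 2 of 9 tested genes were higher and 1 endothelial gene was lower at that p. The part of these cells in the values below was not tested.

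The letters of the antioxidant response element were looked up in the promoters, since it is the site that joins NRF2 to these genes. The motif TGACNNNGC was searched on both strands from 250 bases before to 50 bases after each RefSeq start site on GRCm38.p6. Of the 48 genes, 41 had a promoter in the table used, and 9 of these (22.0%) held the motif, against 3781 of 27025 genes overall (14.0%). Shown are 6 of the 9, those among the 24 genes that the rule for full description picked, with up to 15 bases on each side of the motif and the motif in capitals. Where the motif lies on the strand opposite to the gene it reads GCNNNGTCA.
Prdx1: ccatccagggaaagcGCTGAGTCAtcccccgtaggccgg
Gclm: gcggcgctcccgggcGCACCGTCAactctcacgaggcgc
Txnrd1: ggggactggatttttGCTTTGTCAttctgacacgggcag
Gstm5: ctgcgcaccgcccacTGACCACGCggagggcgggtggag
Sod1: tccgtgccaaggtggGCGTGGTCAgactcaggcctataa
Nfe2l2: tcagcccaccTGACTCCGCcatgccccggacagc

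These windows lie on GRCm38.p6 at chr4:116685451-116685489 for *Prdx1*, chr3:122245408-122245446 for *Gclm*, chr10:82859099-82859137 for *Txnrd1*, chr3:107895797-107895835 for *Gstm5* and chr16:90220691-90220729 for *Sod1*, all on the plus strand, and at chr2:75704880-75704913 on the minus strand for *Nfe2l2*. Only the *Prdx1* match overlaps the letters TGAGTCA of an AP-1 site. The other 3 genes with the motif were *Mgst1*, *G6pdx* and *Srxn1*. The 9 genes did not share a direction between the genotypes, with 4 higher and 5 lower in KO muscle and a median log2 fold change of -0.012, against 0.088 for the 32 genes without the motif. A match is a description of the letters, and the files hold no data on binding.

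All 48 genes passed the filter of the test, a mean of at least 0.5 FPKM, and 0 of them had an adjusted p under 0.05 with limma. Over all 12334 genes tested, 0.251% passed that threshold with a higher level and 0.073% with a lower level in KO muscle. At an unadjusted p under 0.05, 9 of the 48 genes (18.8%) were higher and 3 (6.25%) were lower in KO muscle, against 15.3% and 10.9% of all tested genes. The split of 9 and 3 became 8 and 5 under median ratio scaling and 8 and 7 under quantile normalization. The 3 KO libraries lay above the 3 WT libraries for 10 of the genes (20.8%) and under them for 7 (14.6%), against 18.3% and 16.2% of all tested genes. These shares are near those of all genes. The median log2 fold change of the 48 genes was 0.042 and that of all tested genes was 0.010, and the size of the difference did not exceed 0.63 for any of the 48. The median range between the 3 libraries of a genotype was 0.28 on the log2 scale in WT and 0.28 in KO muscle. The difference was larger than the range within both genotypes for 9 of the 48 genes. That count was not made over all tested genes, so it does not show whether these genes stand out. With 3 mice on each side, 0.1 is the smallest two-sided p of an exact permutation test. The sum of the 48 genes was 2578 to 2668 FPKM in the WT and 2614 to 2967 FPKM in the KO libraries, and these ranges overlap. Counts at an unadjusted p depend on single libraries, with 5 higher genes without KO replicate 8, and 1 lower gene without WT replicate 1, without WT replicate 8 or without KO replicate 7.

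**Figure D1:**
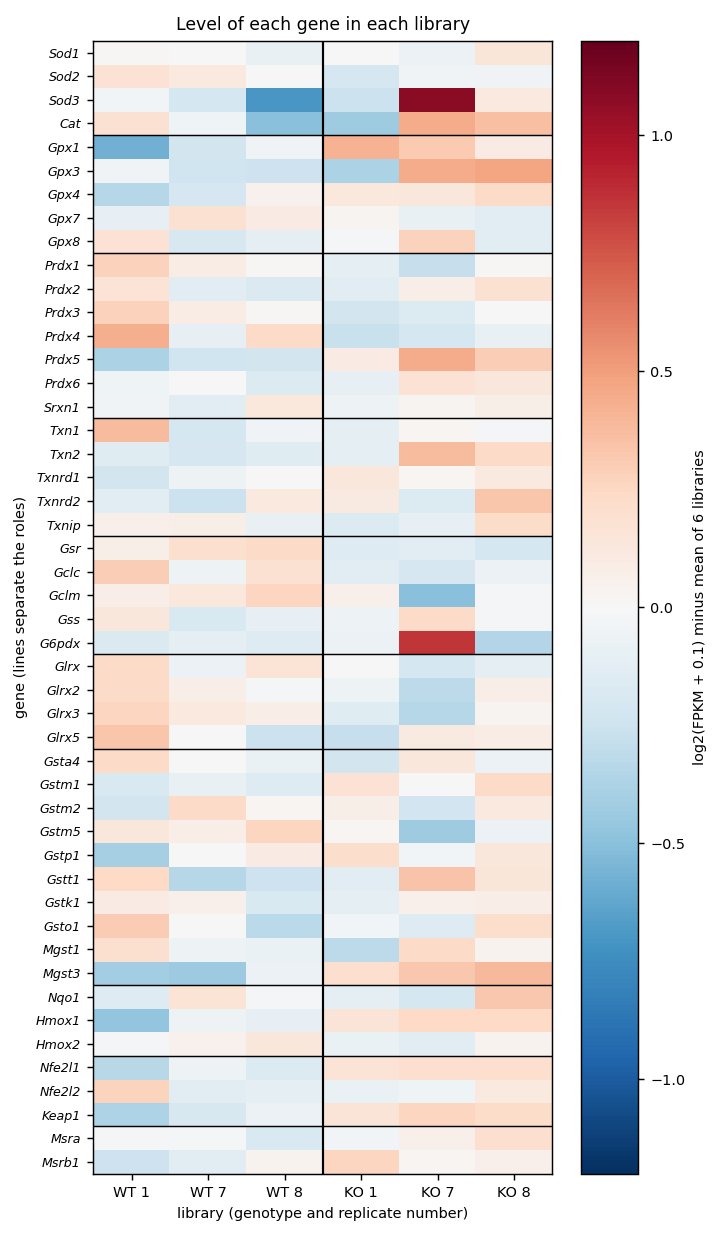
Level of each of the 48 genes in each library, as log2(FPKM + 0.1) minus the mean of the 6 libraries, with genes in rows (black lines separate the roles) and libraries in columns (WT to the left, KO to the right of the heavy line). Most rows are pale, and the strongest reds are those of *Sod3* and *G6pdx* in KO replicate 7, at 3.22 and 3.70 FPKM.

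The direction of the difference followed the base composition of the genes. Across the 48 genes, Spearman's rho between the log2 fold change and the GC content of the annotated transcripts was 0.64, and it was 0.70 across the 11985 tested genes of known GC content. Genes share libraries and are not independent replicates, so these are descriptions. The 28 genes with a positive difference had a median GC content of 52.9% and the 20 with a negative one had 48.4%. All 10 genes with every KO library above every WT library had a GC content over 50%, and all 7 genes with every KO library under every WT library had one under 50%. This split was not counted over all tested genes, whose fold changes followed GC content as well. Over all tested genes above 0 in every library, each library's deviation changed with GC content by -0.41, -0.20 and -0.14 log2 units per 10 points of GC in WT replicates 1, 7 and 8, and by 0.17, 0.37 and 0.21 in KO replicates 1, 7 and 8. The libraries were therefore corrected for this trend as an alternative, and the values after correction are given with those of the named genes. The sign of the log2 fold change turned for 15 of the 48 genes, and how often it turned over all tested genes was not counted. After correction 1 gene was higher (*Mgst3*) and 4 were lower (*Gsr*, *Gpx7*, *Srxn1* and *Hmox2*) at an unadjusted p under 0.05, against 5.33% and 5.4% of all genes, and 0 had an adjusted p under 0.05, against 0.0501% and 0.0668%. After correction the KO libraries lay above the WT libraries for 4 and under them for 7 of the 48 genes, against 8.14% and 9.33% of all genes. Of the 17 genes whose genotypes did not overlap, 4 kept this after correction in the same direction: *Mgst3*, *Hmox1*, *Gsr* and *Sod2*. The same count was not made over all tested genes.

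**Figure D2:**
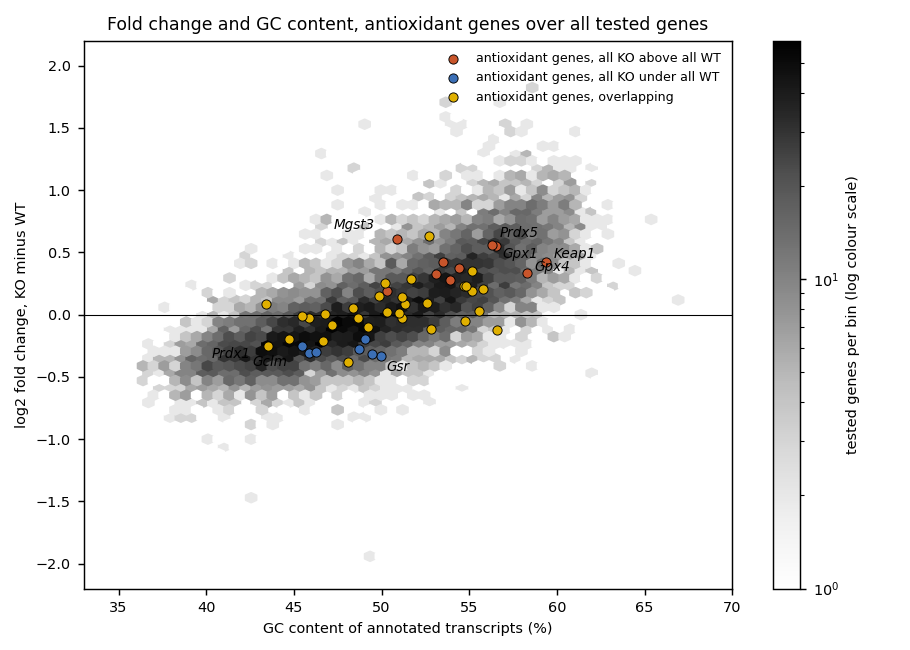
Log2 fold change (KO minus WT) against GC content of the annotated transcripts in percent, for all tested genes (gray hexagons, darker for more genes on a log color scale) and for the 48 genes (points, colored by whether the 3 KO and 3 WT libraries overlap). Of the 11985 tested genes 11836 are within the axes, and the points lie within the band of all genes, with *Mgst3* (GC content 50.9%, log2 fold change 0.61) near its upper edge and *Gsr* (-0.33) below its middle.

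Superoxide dismutases and catalase showed no shared direction. *Sod1* (ENSMUSG00000022982, chromosome 16, 90220754 to 90226329), the cytosolic copper and zinc enzyme and the most abundant of the 4, was at 187, 183 and 174 FPKM in WT mice 1, 7 and 8 and 185, 175 and 204 FPKM in KO mice 1, 7 and 8. The genotypes overlapped, with a difference of 0.051 log2 units (SE 0.10, limma adjusted p = 0.781), and its sign turned to -0.0086 under quantile normalization. After correction for GC content the difference was 0.12, with every KO above every WT library. *Sod2* (ENSMUSG00000006818, chromosome 17, 13006846 to 13040063), the manganese enzyme of the mitochondrial matrix, was at 71.4, 68.7 and 63.6 FPKM in WT mice 1, 7 and 8 and 54.99, 61.4 and 61.4 FPKM in KO mice 1, 7 and 8. The KO values were all below the WT values, by a difference of -0.20 log2 units (SE 0.10, limma adjusted p = 0.263), and by -0.15 after correction for GC content. *Sod3*, the secreted enzyme, and *Cat*, the peroxisomal catalase, are named after their values were seen because they had the widest errors of the 4. *Sod3* was at 1.43, 1.25 and 0.869 FPKM in WT mice 1, 7 and 8 and 1.21, 3.22 and 1.60 FPKM in KO mice 1, 7 and 8. Its log2 fold change of 0.63 was 0.46 after correction and 0.24 without KO replicate 7. That library had the highest sums of adipocyte, macrophage, endothelial and Schwann cell genes, whose part in this was not tested. *Cat* spanned 18.5 to 29.9 FPKM over the WT and 19.6 to 35.9 FPKM over the KO mice, and its log2 fold change of 0.25 (standard error 0.27), also 0.25 after correction, was within that spread.

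Of the 5 glutathione peroxidases, which reduce peroxides, 4 were higher in KO muscle by the fitted values, as under median ratio scaling and quantile normalization. After correction for GC content, 3 were higher. *Gpx4* (ENSMUSG00000075706, chromosome 10, 80047166 to 80056439), which reduces lipid hydroperoxides within membranes and guards cells from ferroptosis, was the most abundant, at 158, 175 and 207 FPKM in WT mice 1, 7 and 8 and 219, 221 and 236 FPKM in KO mice 1, 7 and 8. Every KO library lay above every WT library, with a difference of 0.33 log2 units (SE 0.13, limma adjusted p = 0.156). With a GC content of 58.3%, its log2 fold change was -0.20 after correction, the opposite sign. *Gpx1* (ENSMUSG00000063856, chromosome 9, 108338903 to 108340343), the cytosolic enzyme for hydrogen peroxide, was at 20.7, 26.5 and 30.1 FPKM in WT mice 1, 7 and 8 and 41.4, 38.5 and 33.03 FPKM in KO mice 1, 7 and 8. Its KO libraries also lay above its WT libraries, with a difference of 0.56 log2 units (SE 0.16, limma adjusted p = 0.102) and a value of 0.13 after correction. *Gpx3*, the secreted plasma form, named after its values were seen, was at 73.02, 63.4 and 62.9 FPKM in WT mice 1, 7 and 8 and 57.5, 102 and 104 FPKM in KO mice 1, 7 and 8, so that KO replicate 1 lay under every WT library while the other two KO libraries lay above them. Its log2 fold change was 0.35, and 0.020 after correction. *Gpx7* and *Gpx8*, both enzymes of the endoplasmic reticulum, stayed between 3.82 and 7.80 FPKM with overlapping genotypes, at log2 fold changes of -0.12 and 0.088. After correction they no longer overlapped and lay in opposite directions, with -0.55 for *Gpx7* and 0.36 for *Gpx8*. For *Gpx8* the genotypes almost met, at 2.677 in WT replicate 1 and 2.678 in KO replicate 8 on the corrected log2 scale.

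The peroxiredoxins reduce peroxides with thioredoxin as the main electron donor, and sulfiredoxin (*Srxn1*) repairs them after overoxidation. *Prdx5* (ENSMUSG00000024953, chromosome 19, 6906697 to 6910106), found in mitochondria, peroxisomes and the cytosol, was at 77.4, 85.05 and 86.4 FPKM in WT mice 1, 7 and 8 and 108, 137 and 124 FPKM in KO mice 1, 7 and 8. The lowest KO library was above the highest WT library, and the difference of 0.56 log2 units (SE 0.12, limma adjusted p = 0.0734) was among the largest of the 48 genes. It ranged from 0.48 to 0.65 with each library left out in turn, and it was 0.15 after correction for its GC content of 56.3%. *Prdx3* (ENSMUSG00000024997, chromosome 19, 60864051 to 60874556), the mitochondrial peroxiredoxin, lay the other way, at 170.5, 150.007 and 143 FPKM in WT mice 1, 7 and 8 and 121, 126 and 141 FPKM in KO mice 1, 7 and 8. No KO library reached the lowest WT library, with a difference of -0.25 log2 units (SE 0.12, limma adjusted p = 0.209) and a value of -0.063 after correction. *Prdx1* (ENSMUSG00000028691, chromosome 4, 116685544 to 116700822), the most abundant peroxiredoxin and cytosolic, was at 223, 196 and 186 FPKM in WT mice 1, 7 and 8 and 169.9, 153 and 187 FPKM in KO mice 1, 7 and 8. Its genotypes overlapped by the small margin between KO replicate 8 and WT replicate 8, with a difference of -0.25 log2 units (SE 0.12, limma adjusted p = 0.236), and the sign turned to 0.021 after correction. *Prdx4* (ENSMUSG00000025289, chromosome X, 155323918 to 155340754), the form of the secretory pathway, was at 7.85, 5.41 and 6.79 FPKM in WT mice 1, 7 and 8 and 4.79, 4.97 and 5.42 FPKM in KO mice 1, 7 and 8. WT replicate 7 lay within the KO range, and the difference of -0.38 log2 units (SE 0.16, limma adjusted p = 0.180) had an unadjusted p of 0.0438. After correction for GC content the difference was -0.30, with an unadjusted limma p of 0.0856. *Prdx2*, *Prdx6* and *Srxn1* overlapped between the genotypes, with log2 fold changes of 0.089, 0.14 and 0.033. After correction these were 0.019, 0.079 and -0.33, and every KO library then lay under every WT library for *Srxn1*.

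**Figure D3:**
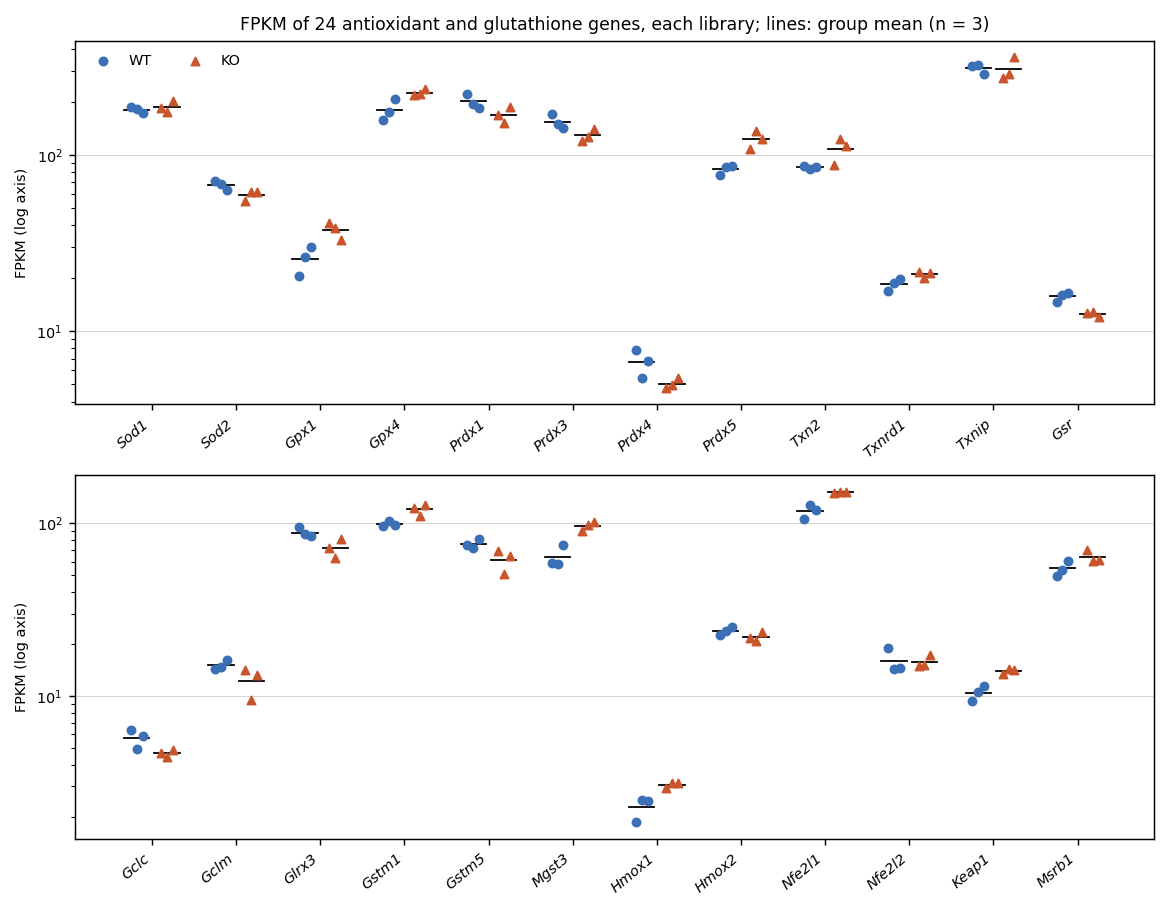
FPKM (log axis) of the 24 genes picked by the rule for full description, with WT libraries as blue circles, KO libraries as orange triangles (replicates 1, 7 and 8 from left to right in each group) and the mean of each group of 3 as a black line. *Prdx5*, *Mgst3*, *Nfe2l1* and *Keap1* show KO triangles above all WT circles, *Gsr* shows them below, and *Txnip*, *Sod1* and *Nfe2l2* overlap.

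In the thioredoxin system, the genotypes did not overlap for the mitochondrial thioredoxin and overlapped for the cytosolic one, before correction for GC content. The thioredoxins were not tested against each other. *Txn2* (ENSMUSG00000005354, chromosome 15, 77915047 to 77929006), the mitochondrial thioredoxin, was at 86.3, 82.9 and 86.1 FPKM in WT mice 1, 7 and 8 and 87.9, 124 and 112 FPKM in KO mice 1, 7 and 8. The WT libraries lay within 3.35 FPKM of each other, KO replicate 1 was just above them and the other two KO libraries were clearly higher, with a difference of 0.33 log2 units (SE 0.14, limma adjusted p = 0.189) and a value of 0.13 after correction for GC content. *Txn1*, the cytosolic thioredoxin, overlapped between the genotypes, with a log2 fold change of -0.079, and 0.027 after correction. *Txnrd1* (ENSMUSG00000020250, chromosome 10, 82833951 to 82897712), the cytosolic thioredoxin reductase and a known NRF2 target, was at 16.9, 18.9 and 19.8 FPKM in WT mice 1, 7 and 8 and 21.7, 20.1 and 21.5 FPKM in KO mice 1, 7 and 8. The KO values all exceeded the WT values, although the gap between the nearest of them was 0.329 FPKM, with a difference of 0.19 log2 units (SE 0.11, limma adjusted p = 0.297) and 0.18 after correction. *Txnrd2*, the mitochondrial reductase, overlapped, with a log2 fold change of 0.19 that turned to -0.15 after correction. *Txnip* (ENSMUSG00000038393, chromosome 3, 96557957 to 96561883), which binds thioredoxin and limits glucose uptake, was the most abundant of the 48 genes, at 320.3, 323 and 289 FPKM in WT mice 1, 7 and 8 and 274, 288 and 359 FPKM in KO mice 1, 7 and 8. The genotypes overlapped, with a difference of -0.028 log2 units (SE 0.13, limma adjusted p = 0.912), which turned to 0.031 after correction and to 0.050 without KO replicate 1.

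Glutathione is made by the 2 subunits of glutamate-cysteine ligase (*Gclc*, catalytic, and *Gclm*, modifier) and by glutathione synthetase (*Gss*), and its oxidized form is reduced by glutathione reductase (*Gsr*) with NADPH from *G6pdx*, the first enzyme of the pentose phosphate pathway. *Gsr* (ENSMUSG00000031584, chromosome 8, 33652523 to 33698163) measured 14.8, 16.1 and 16.6 FPKM in WT mice 1, 7 and 8 and 12.6, 12.9 and 12.1 FPKM in KO mice 1, 7 and 8. The highest KO library lay 1.89 FPKM under the lowest WT library, with a difference of -0.33 log2 units (SE 0.10, limma adjusted p = 0.110). Its log2 fold change stayed within -0.38 to -0.30 with each library left out and was -0.32 after correction for GC content, so it was among the few genes that kept both size and separation. *Gclc* (ENSMUSG00000032350, chromosome 9, 77754535 to 77794485) measured 6.32, 4.93 and 5.83 FPKM in WT mice 1, 7 and 8 and 4.65, 4.44 and 4.88 FPKM in KO mice 1, 7 and 8. *Gclm* (ENSMUSG00000028124, chromosome 3, 122245557 to 122270732) measured 14.3, 14.7 and 16.1 FPKM in WT mice 1, 7 and 8 and 14.05, 9.51 and 13.3 FPKM in KO mice 1, 7 and 8. In both ligase subunits each KO library lay under each WT library, by margins of 0.0481 FPKM for *Gclc* and 0.252 FPKM for *Gclm*. *Gclc* had a difference of -0.28 log2 units (SE 0.13, limma adjusted p = 0.223) and *Gclm* had a difference of -0.31 log2 units (SE 0.16, limma adjusted p = 0.263). After correction the values were -0.22 and -0.14, and without KO replicate 7 that of *Gclm* was -0.14. *Gss* overlapped, with a log2 fold change of 0.10 and -0.058 after correction. *G6pdx*, named after its values were seen, was at 1.76, 1.85 and 1.78 FPKM in WT mice 1, 7 and 8 and 1.89, 3.70 and 1.54 FPKM in KO mice 1, 7 and 8, so that KO replicate 7 stood apart from 5 libraries of 1.54 to 1.89 FPKM, and the log2 fold change of 0.29 was -0.070 without it and 0.20 after correction. The role as a whole summed to 42.1 to 45.1 FPKM in WT and to 36.6 to 38.2 FPKM in KO muscle, without GC correction. Other roles had sums that did not overlap either, all higher in KO muscle. The FPKM of all genes in the table summed to 382780, 432353 and 402269 in WT replicates 1, 7 and 8. In KO replicates 1, 7 and 8 it summed to 469361, 431414 and 477356. The role sums were not scaled to these totals, so they do not show whether a role took a larger share of its library. In WT and KO muscle the glutathione peroxidases summed to 263 to 311 and 329 to 382 FPKM. The transferases summed to 492 to 513 and 533 to 579 FPKM. The NRF genes with *Keap1* summed to 134 to 152 and 177 to 184 FPKM, and the methionine sulfoxide reductases to 61.8 to 71.4 and 72.9 to 82.4 FPKM. Sums of the remaining roles overlapped.

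All 4 glutaredoxins, small glutathione-dependent oxidoreductases of which *Glrx3* and *Glrx5* also serve in iron-sulfur cluster handling, had negative fitted values, with both other scalings too, and 3 of 4 did after correction for GC content. *Glrx3* (ENSMUSG00000031068, chromosome 7, 137437614 to 137468594) was the most abundant, at 94.9, 86.3 and 84.1 FPKM in WT mice 1, 7 and 8 and 71.9, 62.8 and 81.5 FPKM in KO mice 1, 7 and 8. Each KO library lay under each WT library, with a difference of -0.30 log2 units (SE 0.12, limma adjusted p = 0.181) and -0.15 after correction. The genotypes overlapped for *Glrx*, *Glrx2* and *Glrx5*, with log2 fold changes of -0.21, -0.19 and -0.051, and of -0.082, 0.032 and -0.36 after correction.

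Among the 10 glutathione transferases, which attach glutathione to reactive compounds, *Mgst3* had the largest difference. *Mgst3* (ENSMUSG00000026688, chromosome 1, 167371966 to 167393841), a microsomal enzyme with transferase and peroxidase activity, was at 58.5, 57.9 and 74.5 FPKM in WT mice 1, 7 and 8 and 89.7, 97.9 and 102 FPKM in KO mice 1, 7 and 8. The lowest KO library was 15.2 FPKM above the highest WT library. Its mean was 63.6 ± 9.44 (SD, n = 3) for WT against 96.7 ± 6.43 FPKM (SD, n = 3) for KO mice, a difference of 0.61 log2 units (SE 0.13, limma adjusted p = 0.0732), the lowest adjusted p of the 48 genes, with *Prdx5* next. It ranged from 0.55 to 0.73 with each library left out in turn and was 0.57 (standard error 0.13) after correction, with the KO libraries still above the WT libraries. *Gstm1* (ENSMUSG00000058135, chromosome 3, 108012255 to 108017973), a cytosolic mu class enzyme, was at 96.3, 103 and 98.3 FPKM in WT mice 1, 7 and 8 and 123, 109.8 and 128 FPKM in KO mice 1, 7 and 8. Its KO libraries lay above its WT libraries, with a difference of 0.28 log2 units (SE 0.10, limma adjusted p = 0.154) and 0.025 after correction. *Gstm5* (ENSMUSG00000004032, chromosome 3, 107895821 to 107898686), of the same class and gene cluster on chromosome 3, lay the other way, at 74.98, 71.98 and 81.2 FPKM in WT mice 1, 7 and 8 and 69.1, 50.6 and 64.6 FPKM in KO mice 1, 7 and 8. Each KO library was under each WT library, with a difference of -0.32 log2 units (SE 0.14, limma adjusted p = 0.196) and -0.29 after correction. The mu class genes are close paralogs, and how fragments that fit several of them were counted is not given in the sources used here, so their split is uncertain. The other 7 transferases overlapped between the genotypes. Their log2 fold changes ran from -0.10 for *Gsta4* to 0.23 for *Gstt1*, and that of *Gstp1*, the pi class enzyme, was 0.21. After correction they ran from -0.17 for *Gstp1* to 0.14 for *Mgst1*, and the sign turned for *Gstp1*, *Gstt1* (-0.073), *Gsto1* and *Mgst1*.

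Before correction for GC content, the genotypes did not overlap for the NRF2 sensor *Keap1* and for *Nfe2l1*, and they overlapped for *Nfe2l2*. These genes were not tested against each other. *Nfe2l2* (ENSMUSG00000015839, chromosome 2, 75675513 to 75704641), which encodes NRF2, was at 19.00, 14.4 and 14.6 FPKM in WT mice 1, 7 and 8 and 14.9, 15.2 and 17.2 FPKM in KO mice 1, 7 and 8. Its genotypes overlapped, with a difference of -0.012 log2 units (SE 0.14, limma adjusted p = 0.967), which became 0.18 after correction for GC content and 0.12 without WT replicate 1, the library with the most *Nfe2l2*. *Keap1* (ENSMUSG00000003308, chromosome 9, 21229730 to 21239361), which encodes the adaptor that sends NRF2 to the proteasome, was at 9.29, 10.5 and 11.5 FPKM in WT mice 1, 7 and 8 and 13.4, 14.4 and 14.1 FPKM in KO mice 1, 7 and 8. The KO values all exceeded the WT values, with a difference of 0.42 log2 units (SE 0.12, limma adjusted p = 0.0956). With the highest GC content of the 48 genes, 59.4%, its log2 fold change was -0.17 after correction, where the KO libraries lay under the WT libraries. *Nfe2l1* (ENSMUSG00000038615, chromosome 11, 96817414 to 96829968), which encodes the related factor NRF1 that drives proteasome genes, was at 106, 127 and 119 FPKM in WT mice 1, 7 and 8 and 149, 153 and 153 FPKM in KO mice 1, 7 and 8. The KO libraries lay within 3.61 FPKM of each other and above all WT libraries, with a difference of 0.37 log2 units (SE 0.11, limma adjusted p = 0.0983) and a value of 0.086 after correction.

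The genes that handle quinones and heme, of which *Hmox1* and *Nqo1* are textbook NRF2 targets, showed no shared pattern. They were not tested against each other. *Hmox1* (ENSMUSG00000005413, chromosome 8, 75093621 to 75100589), the inducible heme oxygenase, was low, at 1.86, 2.51 and 2.46 FPKM in WT mice 1, 7 and 8 and 2.95, 3.12 and 3.12 FPKM in KO mice 1, 7 and 8. Its KO libraries lay above its WT libraries, with a difference of 0.42 log2 units (SE 0.16, limma adjusted p = 0.154) and 0.20 after correction, where they still did not overlap. Macrophages that take up red blood cells also make much *Hmox1*. The macrophage genes summed to 26.1, 46.1 and 55.3 FPKM in WT replicates 1, 7 and 8. In KO replicates 1, 7 and 8 they summed to 37.6, 85.8 and 52.4 FPKM. The red blood cell genes summed to 314, 242 and 298 FPKM in WT replicates 1, 7 and 8. In KO replicates 1, 7 and 8 they summed to 266, 471 and 547 FPKM. The part of these cells in the *Hmox1* values was not tested. *Hmox2* (ENSMUSG00000004070, chromosome 16, 4726361 to 4766742), the constitutive form and the most abundant of the 3 genes, was at 22.7, 23.7 and 25.1 FPKM in WT mice 1, 7 and 8 and 21.6, 20.8 and 23.5 FPKM in KO mice 1, 7 and 8. Its genotypes overlapped, with a difference of -0.12 log2 units (SE 0.10, limma adjusted p = 0.484), and after correction the value was -0.29 with every KO library under every WT library. *Nqo1*, the quinone reductase, named after its values were seen as the usual readout of NRF2, was at 13.02, 16.3 and 14.4 FPKM in WT mice 1, 7 and 8 and 13.5, 12.6 and 18.2 FPKM in KO mice 1, 7 and 8, with overlapping genotypes and a difference of 0.0024 log2 units (SE 0.17, limma adjusted p = 0.995), which was 0.13 after correction. The methionine sulfoxide reductases repair oxidized methionine. *Msrb1* (ENSMUSG00000075705, chromosome 17, 24736642 to 24742778) measured 49.8, 53.9 and 60.7 FPKM in WT mice 1, 7 and 8 and 70.5, 60.3 and 61.7 FPKM in KO mice 1, 7 and 8, where the 2 lower KO libraries lay close to WT replicate 8, with a difference of 0.23 log2 units (SE 0.12, limma adjusted p = 0.260) and a change of sign to -0.084 after correction. *Msra* had a log2 fold change of 0.15, and 0.16 after correction.

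**Figure D4:**
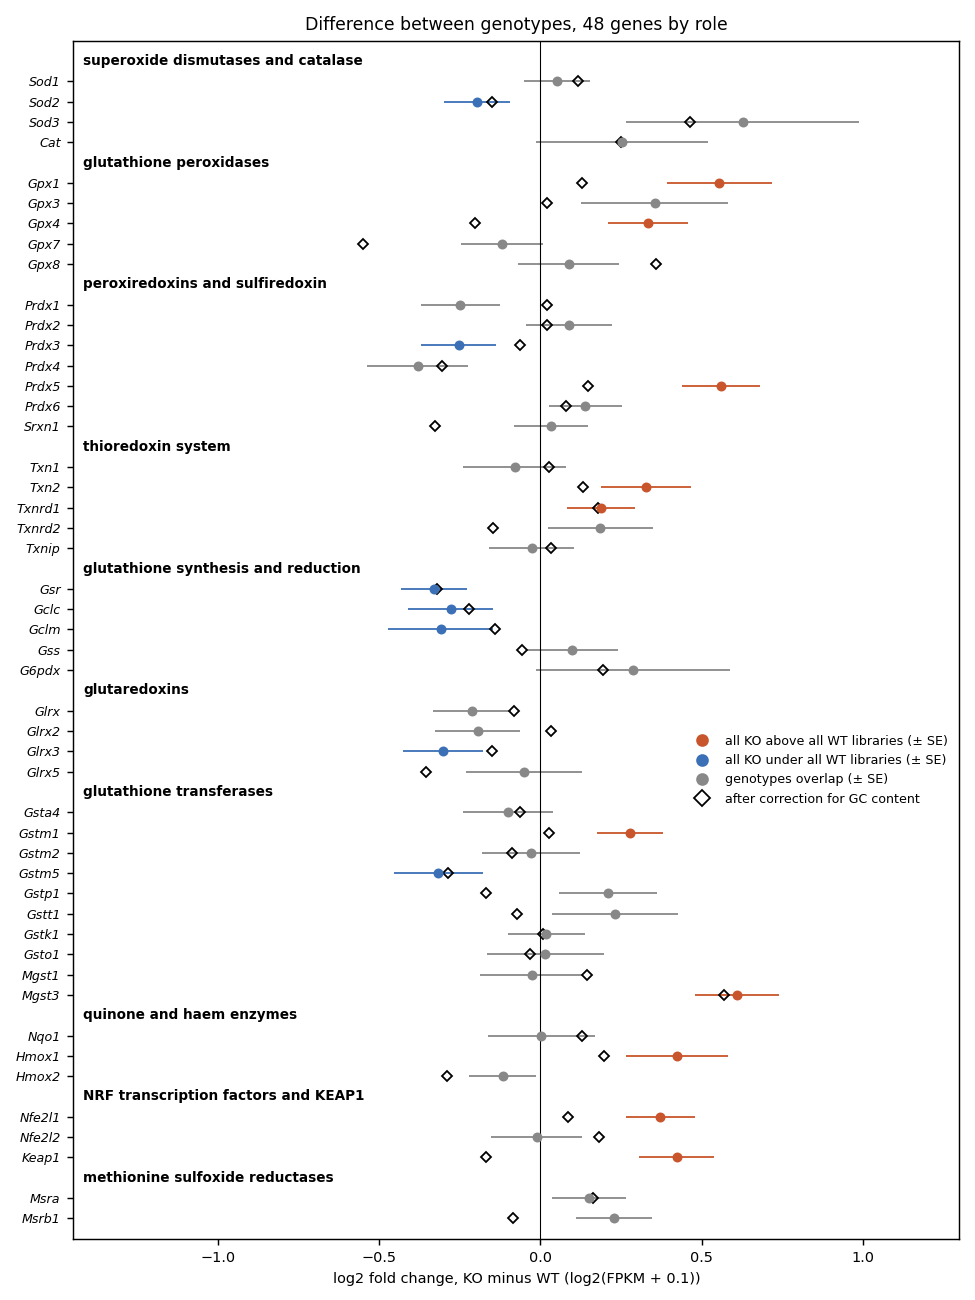
Log2 fold change (KO minus WT) of the 48 genes by role, with the fitted value and its standard error (filled circles; orange where all KO libraries lie above all WT libraries, blue where they lie under them, gray where they overlap) and the value after correction for GC content (open diamonds). The diamonds of *Mgst3*, *Gsr* and *Gstm5* stay close to their circles, at 0.57, -0.32 and -0.29, whereas those of *Gpx4* and *Keap1* lie on the other side of 0, at -0.20 and -0.17.

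A group that cuts across these roles is the selenoproteins, enzymes with selenocysteine at the active site, set after the values were seen and given with no test. All 6 in the list, *Gpx1*, *Gpx3*, *Gpx4*, *Txnrd1*, *Txnrd2* and *Msrb1*, had positive fitted values, with a median log2 fold change of 0.28 and GC contents of 50.3% to 58.3%. After correction 3 were positive and 3 negative. Of 10 other selenoprotein genes, 6 were positive and 4 negative, and after correction 4 were positive and 6 negative. *Selenot* and *Selenof*, both proteins of the endoplasmic reticulum, had log2 fold changes of -0.53 and -0.45 and GC contents of 40.3% and 43.4%, and *Selenon*, a muscle disease gene, had 0.70 at 56.9%. After correction these log2 fold changes were -0.17, -0.18 and 0.25.

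The other genes of the pathway were taken from 5 lists of further glutathione, thioredoxin, NADPH supply, NRF2 and other redox genes. Of their 135 entries 119 were tested, and 0 had an adjusted p under 0.05 with limma. At an unadjusted p under 0.05, 27 (22.7%) were higher and 12 (10.1%) lower in KO muscle, beside the 15.3% and 10.9% of all genes, and after correction for GC content these were 12 and 3, beside 5.33% and 5.4% of all genes. The median log2 fold change was 0.11, and 0.053 after correction. Of the 21 tested genes of the glutathione list, 5 were higher and 2 lower at that p. *Chac1*, which breaks down glutathione, was at 5.79, 14.00 and 6.28 FPKM in WT mice 1, 7 and 8 and 25.9, 18.5 and 21.9 FPKM in KO mice 1, 7 and 8. The KO values all exceeded the WT values, with a difference of 1.44 log2 units (SE 0.33, limma adjusted p = 0.0750), and of the alternatives run it was called only without WT replicate 7, with a log2 fold change of 1.85. Its GC corrected value was 0.96. *Slc25a40*, a mitochondrial glutathione carrier, had a difference of -0.50 log2 units (SE 0.18, limma adjusted p = 0.148) and -0.11 after correction, and *Oplah*, the 5-oxoprolinase of the glutathione cycle, had a difference of 0.33 log2 units (SE 0.12, limma adjusted p = 0.149) that turned to -0.22 after correction.

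Of the 17 NADPH supply genes, 4 were higher and 0 lower at an unadjusted p under 0.05, beside 15.3% and 10.9% of all genes. *Taldo1*, the transaldolase of the pentose phosphate pathway, was at 23.9, 28.7 and 32.5 FPKM in WT mice 1, 7 and 8 and 41.7, 45.2 and 42.7 FPKM in KO mice 1, 7 and 8. The KO libraries lay above the WT libraries, with a difference of 0.62 log2 units (SE 0.13, limma adjusted p = 0.0732) and 0.39 after correction. *Pgls*, of the same pathway, had a difference of 1.25 log2 units (SE 0.37, limma adjusted p = 0.104) and 0.58 after correction. Its genotypes overlapped, with KO replicate 1 at 3.77 FPKM and WT replicate 8 at 3.78 FPKM. *Tkt*, also of that pathway, had a difference of 0.79 log2 units (SE 0.33, limma adjusted p = 0.182) and 0.46 after correction. Without KO replicate 7, its highest library at 6.44 FPKM, the log2 fold change of *Tkt* was 0.41. Of the 28 tested NRF2 partners and targets, 9 were higher and 1 lower at that p, beside the same shares of all genes. *Ftl1*, the light chain of the iron store ferritin, was at 44.9, 49.8 and 67.9 FPKM in WT mice 1, 7 and 8 and 85.9, 131 and 124 FPKM in KO mice 1, 7 and 8. The KO libraries lay above the WT libraries, with a difference of 1.06 log2 units (SE 0.21, limma adjusted p = 0.0700) and 0.56 after correction. *Osgin1*, an oxidative stress induced growth inhibitor, had a difference of 1.36 log2 units (SE 0.29, limma adjusted p = 0.0722) and 0.75 after correction, and *Akr7a5*, an aldo-keto reductase, had a difference of 0.83 log2 units (SE 0.18, limma adjusted p = 0.0750) and 0.26 after correction.

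Of the 34 thioredoxin-fold and related genes, 3 were higher and 5 lower at an unadjusted p under 0.05, beside 15.3% and 10.9% of all genes, and the 3 with the lowest p were all lower, *Tmx3*, *Selenot* and *Txnl4a*, with log2 fold changes of -0.59, -0.53 and -0.45. After correction these were -0.15, -0.17 and -0.59. Of the 19 tested genes of the last list, on superoxide, peroxide and lipid peroxide handling, 6 were higher and 4 lower, beside the same shares. *Oxr1*, an oxidation resistance gene, was at 23.7, 23.04 and 22.3 FPKM in WT mice 1, 7 and 8 and 16.1, 15.8 and 17.1 FPKM in KO mice 1, 7 and 8. No KO library reached a WT library, with a difference of -0.49 log2 units (SE 0.10, limma adjusted p = 0.0700) and -0.22 after correction. *Aldh2*, the mitochondrial aldehyde dehydrogenase that clears lipid aldehydes, was at 10.6, 10.4 and 10.6 FPKM in WT mice 1, 7 and 8 and 16.96, 34.7 and 23.3 FPKM in KO mice 1, 7 and 8. Its WT libraries were within 0.181 FPKM of each other and the KO libraries spread widely above them, with KO replicate 7 the highest, for a difference of 1.18 log2 units (SE 0.24, limma adjusted p = 0.0700) and 0.80 after correction. *Aifm2*, the ferroptosis suppressor, had a difference of 0.74 log2 units (SE 0.20, limma adjusted p = 0.0962) and 0.36 after correction.

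As a limit of these values, 10 of the 48 genes have an exon that overlaps an exon of another gene on the opposite strand, *Prdx5*, *Keap1*, *Gclm* and *Gstm5* among them, and *Gclm* overlaps 1 on its own strand. The library kit was stranded, but whether strand was used in the quantification is not given in the sources used here.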

How the data were processed

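RNA of the GAS muscles was made into stranded mRNA libraries and sequenced as paired ends. The study's methods name TopHat for the alignment to GRCm38 and Cufflinks for gene quantification. The authors deposited FPKM values, with no counts, for 37979 genes in 6 libraries. Tool versions and the annotation release are not given in the sources used here.

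From these values, log2(FPKM + 0.1) was compared between genotypes by limma 3.58.1 (R 4.3.3, variance trend) over the 12334 genes whose mean was 0.5 FPKM or more. Benjamini-Hochberg adjustment ran over all of them, and calls needed an adjusted p under 0.05. The pseudocount makes fold changes of low genes too small. Groups were taken from the genotype label, 3 mice each. GC content and gene positions came from GENCODE vM21 (GRCm38). To correct for GC content, a loess curve (span 0.3) was fitted to the deviations in each library and subtracted. Fragments per library were estimated from low FPKM of genes with 1 transcript, where 86.1% to 91.5% of values fell within 0.15 of a whole fragment. Among 14983 genes above 0 throughout, library pairs had at most 1 identical value. Alternatives were other pseudocounts, filters, scalings and variance models, the GC correction, a replicate block and leaving out each library.

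The 48 genes and the lists were chosen with earlier results of these data known. The rule for full description picked 24 genes, with values in every library: the NRF genes and *Keap1*, genes without overlap between genotypes or with an unadjusted p under 0.05, and the most abundant gene of each role. Of each further pathway list, the 3 genes with the lowest p are named. Other named genes, 4 of them with values in every library (*Sod3*, *Gpx3*, *G6pdx* and *Nqo1*), were chosen after their values were seen. The steps were tested on simulated data. Plots used matplotlib 3.10.9 under Python 3.11.15.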

Additional observations from a re-analysis of the deposited data

How the results depend on the processing

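With 3 libraries per genotype and no counts, the spread between mice limits what can be called, and 0 of the 48 genes were called under any alternative but limma's array weights, which gave 9 higher and 1 lower gene (*Gsr*), 35 pathway genes beyond the 48, and 1863 higher and 1284 lower of all genes. Those weights ran from 0.355 for WT replicate 1 to 6.12 for WT replicate 7, so that comparison leans on 1 WT library. The counts at an unadjusted p under 0.05, 9 higher and 3 lower, became 15 higher with array weights, 1 higher after correction for GC content and 1 higher with that correction and the replicate block. The higher genes became 6 without the variance trend and 7 with the replicate block alone. The lower genes became 5 under median ratio scaling, 7 under quantile normalization, 1 without the variance trend, 1 with the replicate block alone and 5 with the replicate block and the GC correction. After the GC correction 4 genes, not 10, had all KO above all WT libraries. With the replicate block the called genes among all genes went from 31 to 6 higher, and it changed no call among the 48. Deviations of same-numbered libraries correlated at -0.11, -0.089 and -0.0018, and those of libraries with other numbers at -0.069 to 0.13. With 3 libraries per genotype, these values cannot show whether same-numbered libraries share more than a number.

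The 31 higher and 9 lower calls over all genes became 7 and 4 with a pseudocount of 1, and 1 and 0 without genes listed at 0. The higher calls alone became 9 without a filter, 11 under quantile normalization, 12 without the trend, 6 after the GC correction and 5 with that correction and the replicate block. Leaving out each library in turn gave 5 to 9 higher and 1 to 3 lower of the 48 genes at an unadjusted p under 0.05, 10 to 15 without overlap above and 7 to 12 under the WT libraries (12 without KO replicate 8), beside 21.7% to 24.9% and 18.8% to 22.6% of all genes, a median log2 fold change of -0.0027 to 0.11, 0 to 1 called pathway genes, and 6 to 103 higher and 6 to 23 lower calls over all genes, most without WT replicate 8.

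The GC correction turned the sign of 15 of the 48 genes, which include, of the 24 picked for full description, *Gpx4* (-0.20), *Keap1* (-0.17), *Msrb1* (-0.084), *Prdx1* (0.021), *Txnip* (0.031) and *Nfe2l2* (0.18), and it turned that of *Oplah* (-0.22) beyond the 48, with the same values under the replicate block. Array weights turned *Txnip* (0.036) and *Nfe2l2* (0.16), and quantile normalization turned *Sod1* (-0.0086). With each library left out, the log2 fold change ran from -0.0098 to 0.099 for *Sod1*, from -0.15 to 0.050 for *Txnip* and from -0.080 to 0.12 for *Nfe2l2*. The cause of these changes was not tested. The other 18 of these 24 genes kept their sign under the GC correction. The other 9 of the 15 were *Srxn1*, *Txn1*, *Txnrd2*, *Gss*, *Glrx2*, *Gstp1*, *Gstt1*, *Gsto1* and *Mgst1*.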
